A study of Mus musculus with 12 samples.

Results

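The mRNA of 9 genes of cell division and growth arrest was followed over the day in mouse liver: the kinase gene Wee1, its substrate Cdk1 and the partner of that substrate, Ccnb1, the G1 cyclin gene Ccnd1, the growth regulator Myc, the inhibitor gene Cdkn1a, and the 3 growth arrest genes Gadd45a, Gadd45b and Gadd45g. The members were given by gene symbol, with earlier results of these data known, and these 9 genes were found among the 20069 genes of the table. Of the members, 8 were listed under their current symbols and Cdk1 under its older symbol Cdc2a. Of the 9, 6 (Wee1, Ccnd1, Myc, Cdkn1a, Gadd45a and Gadd45g) passed the expression minimum of 8 rpbp (reads per base pair of exon) in at least 1 sample, as did 10198 of all genes, and Cdk1, Ccnb1 and Gadd45b did not.

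The livers came from adult C57BL/6 mice of 3 to 6 months, described as wild-type males in the study's methods, kept for 2 weeks or longer in days of 12 hr light and 12 hr darkness. Tissue was taken at 6 Zeitgeber times (ZT, hours from lights on), of which ZT2, ZT6 and ZT10 fall in the light and ZT14, ZT18 and ZT22 in the dark. Each time was sampled in 2 independent series, which gives 12 poly(A) RNA-Seq libraries and n = 2 per time point, with no gene deletion or drug in any group. The question for each gene was whether its mRNA level followed the time of day. Because there are 2 samples per time point and the labels do not tie a sample to 1 animal, the tests measure the spread between these samples.

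The deposited values carry a common scale, so the number of sequences behind each library is not in the file, and the library totals of the study were not used here. No counting interval was given. Hepatocyte markers were high in every sample, with a summed level of the 6 markers between 95397 and 161264 rpbp. The 6 lymphocyte markers summed to between 4 and 11.6 rpbp and none of them passed the minimum. In bulk tissue, fewer cells of a type and less RNA per cell cannot be told apart. Between the 2 series, the values of all genes at a given time correlated across genes on the log2 scale with r from 0.975 to 0.987. These describe agreement across genes, which are not independent replicates.

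As background, the circadian clock of liver cells runs on the activators CLOCK and BMAL1, which bind E-box sequences in the DNA of their target genes and drive, among others, the Per and Cry genes, whose proteins then repress them. WEE1 is a kinase that holds CDK1, the kinase that starts mitosis, in an inactive state by phosphorylation, and Wee1 is a textbook link between the clock and cell division in regenerating liver. Hepatocytes of an adult mouse rarely divide, and mRNAs of mitosis are known to be scarce in resting liver. The GADD45 proteins are small stress-inducible proteins that bind CDK1 with cyclin B1, the replication clamp PCNA and the inhibitor p21, and that switch on the kinase encoded by Map3k4.

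The 250 bases before the start of each Gadd45 gene are shown because these 3 paralogs share a protein family and had different mean levels in these samples. The sequences are from RefSeq on GRCm38.p6, written 5′ to 3′ on the strand of the gene, with every CACGTG (the E-box letters, which read the same on both strands) in capitals.
Gadd45a, chr6:67037408-67037657, minus strand: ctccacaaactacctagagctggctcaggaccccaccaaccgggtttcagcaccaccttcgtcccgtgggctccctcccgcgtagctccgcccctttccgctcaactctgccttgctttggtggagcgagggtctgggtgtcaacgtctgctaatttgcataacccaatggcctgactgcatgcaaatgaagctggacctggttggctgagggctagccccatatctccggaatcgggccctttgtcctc
Gadd45b, chr10:80929841-80930090, plus strand: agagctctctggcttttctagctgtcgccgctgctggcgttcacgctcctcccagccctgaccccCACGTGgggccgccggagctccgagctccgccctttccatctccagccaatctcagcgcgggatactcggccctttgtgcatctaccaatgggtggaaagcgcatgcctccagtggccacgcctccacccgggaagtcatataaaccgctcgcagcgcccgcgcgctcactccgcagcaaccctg
Gadd45g, chr13:51846425-51846674, plus strand: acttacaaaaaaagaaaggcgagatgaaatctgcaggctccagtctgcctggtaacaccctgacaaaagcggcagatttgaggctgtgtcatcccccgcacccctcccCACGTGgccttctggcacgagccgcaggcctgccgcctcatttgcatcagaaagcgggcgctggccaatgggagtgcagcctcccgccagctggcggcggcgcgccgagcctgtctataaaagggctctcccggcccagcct
The letters CACGTG occurred once before Gadd45b, 185 bases before the start, once before Gadd45g, 142 bases before the start, and not in this window of Gadd45a, Cdk1 or Ccnb1 or of either start of Cdkn1a, the other members searched. Of 32851 RefSeq promoters of the same length, 6.02% held them. A search for TTATGTAA on either strand (D-box letters) found none in the 3 windows, against 0.819% of all promoters, and CCAAT on either strand occurred in all 3 windows, against 33.8%. A match of letters is a description of the window and not evidence of binding. In the set of 32851 RefSeq promoters searched, 6 of the 9 members had an entry. Wee1, Ccnd1 and Myc had none in this set, so their promoters were not searched.

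Of the 6 members that passed the minimum, Wee1 and Myc were called rhythmic and Cdkn1a, Ccnd1, Gadd45a and Gadd45g were not. The call used the limits of the study: F24, the share of the variance of the 12 values that a 24 hr component takes, above 0.45, a permutation p below 0.05, here over 100000 random orders of the 12 values (one-sided, for a larger F24), and a highest over lowest value (the amplitude) above 1.5. The 2 calls among 6 members compare with 19.1% of the 10198 genes tested, and both members also met the limits for strong rhythms (F24 above 0.6 and a higher amplitude limit), as did 7.89% of all genes tested. Adjusted by the Benjamini-Hochberg method over all genes tested, the permutation p was 0.0304 for Wee1 and 0.115 for Myc. The median F24 of the 6 members was 0.379, beside 0.310 over all genes tested.

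A second test asked only whether the 6 time points differed, in any shape (limma, moderated F test on log2(rpbp + 1), Benjamini-Hochberg adjustment over all genes tested). It called 4 of the 6 members, Wee1, Myc, Gadd45a and Ccnd1, against 17.6% of all genes. The 4 members called had their highest mean at ZT10, ZT14, ZT6 and ZT10 and their lowest at ZT2, ZT18, ZT2 and ZT18, respectively.

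**Figure D1:**
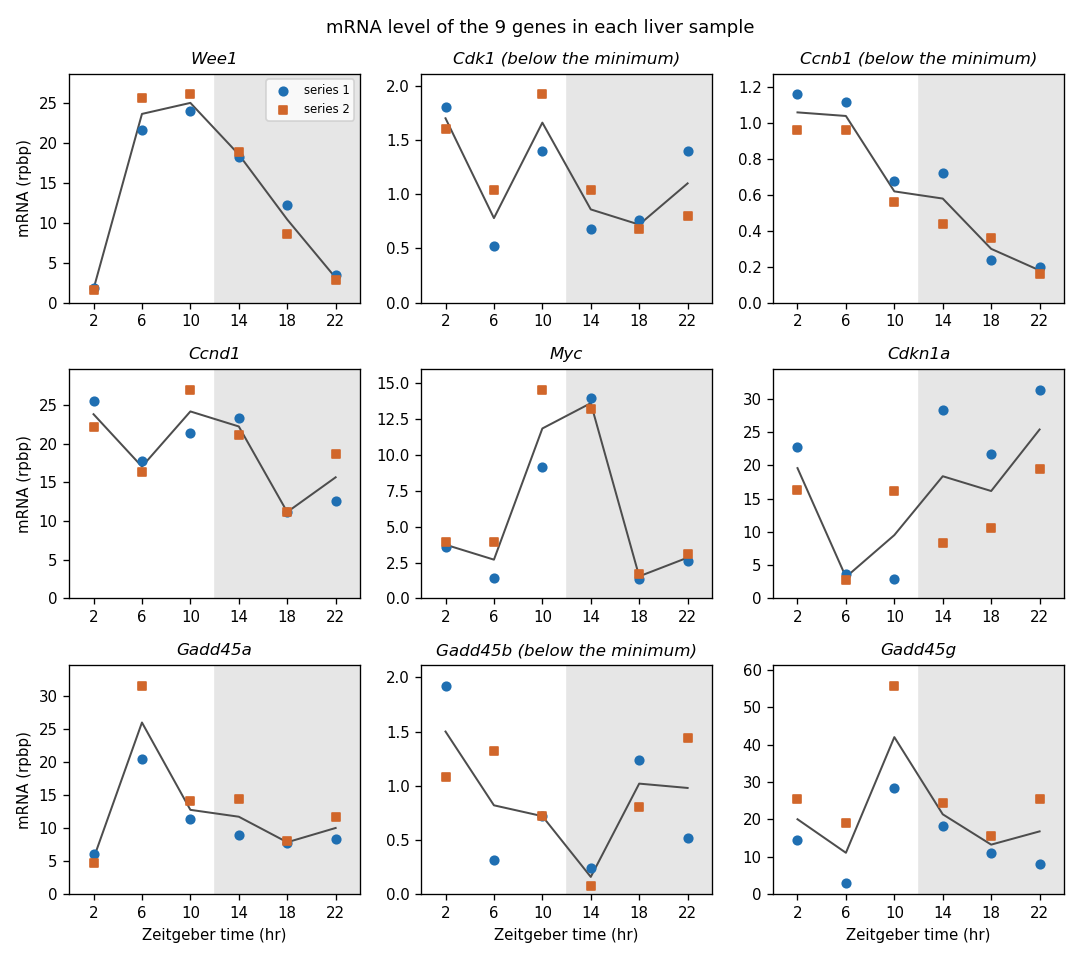
Level of each of the 9 mRNAs (rpbp, linear axes that start at 0 and differ between panels) against Zeitgeber time (hr) in the 12 samples, with blue circles for series 1, orange squares for series 2, a line through the mean of the 2 samples and grey for darkness. Wee1 rises from 1.64 and 1.80 rpbp at ZT2 to 24.0 and 26.1 rpbp at ZT10, and Cdk1, Ccnb1 and Gadd45b stay below 2 rpbp in every sample.

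Wee1 encodes the kinase that keeps CDK1 inactive, and its gene lies at chr7:117265864-117285626 (NCBIM37, plus strand). The mRNA was lowest shortly after lights on and highest late in the light phase. In series 1 the level was 1.80 rpbp at ZT2, 21.6 at ZT6, 24.0 at ZT10, 18.3 at ZT14, 12.2 at ZT18 and 3.44 at ZT22. In series 2 it was 1.64, 25.7, 26.1, 18.8, 8.60 and 2.80 rpbp at the same times. Both ZT2 samples lay below the other 10, and the samples of ZT6 and ZT10 overlapped, while every later step in the order of the means (ZT14, ZT18, ZT22, ZT2) separated both samples from both of the step before. The mean at ZT10 was 25.02 ± 1.499 rpbp (SD, n = 2) and that at ZT2 was 1.72 ± 0.113 rpbp (SD, n = 2), a ratio of 14.5.

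A 24 hr component took 87.1% of the variance of Wee1 (F24 0.871, permutation p 0.00099, adjusted p 0.0304), with its maximum at 10.3 hr, and the amplitude was 15.9. The time points differed by limma with an adjusted p of 4.18e-05, which lay between 4.22e-05 and 0.000758 when any 1 library was left out. The rhythmic call held with each of the 12 libraries left out, with F24 between 0.847 and 0.915. The adjusted permutation p was above 0.05 without either ZT10 library or without the ZT14 library of series 2 (at most 0.0643), and was 0.0531 when all genes were tested with no minimum. Within series 1 alone F24 was 0.881 (exact permutation p 0.1) and within series 2 alone 0.888 (exact permutation p 0.117), where 6 values can give no p below 0.0167.

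Among all 10198 genes tested, those whose log2(rpbp + 1) followed Wee1 most closely over the 12 samples were Tef (Pearson r 0.994), Per3 (0.984) and Idh2 (0.979). Tef encodes a PAR bZIP transcription factor of the clock output, Per3 a period protein and Idh2 the mitochondrial NADP-dependent isocitrate dehydrogenase. Wee1 had its fitted maximum at 10.3 hr, beside 9.96 hr for Tef and 9.69 hr for Per3. Of other clock genes, Dbp had it at 7.36 hr, Per1 at 11.3 hr, Per2 at 12.2 hr and the activator gene Arntl, which encodes BMAL1, at 21.1 hr. The 12 samples share their times of day, so such correlations are a description and carry no p.

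Cdk1, the target of WEE1, and Ccnb1, which encodes the cyclin that CDK1 needs to start mitosis, were both below the minimum in every sample. Cdk1 (chr10:68799383-68815686, NCBIM37, minus strand) was between 0.52 and 1.92 rpbp, with a median of 1.04 rpbp. In series 1 it measured 1.80, 0.52, 1.40, 0.68, 0.76 and 1.40 rpbp from ZT2 to ZT22, and in series 2 it measured 1.60, 1.04, 1.92, 1.04, 0.68 and 0.80 rpbp. With the exon length of the GENCODE model, these levels correspond to about 4.43 to 16.4 sequences at the deposited scale of 10000000 sequences per library. No neighbouring pair in the order of its time points was separated beyond the samples, and without the minimum its F24 was 0.171 (permutation p 0.415).

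Ccnb1 (chr13:101548605-101556525, NCBIM37, minus strand) was between 0.16 and 1.16 rpbp, about 1.67 to 12.1 sequences on the same reckoning. It measured 1.16, 1.12, 0.68, 0.72, 0.24 and 0.20 rpbp from ZT2 to ZT22 in series 1, and 0.96, 0.96, 0.56, 0.44, 0.36 and 0.16 rpbp in series 2. The 4 samples of ZT2 and ZT6 were the highest and the 4 of ZT18 and ZT22 the lowest, and the mean at ZT2 was 1.06 ± 0.141 rpbp against 0.18 ± 0.0283 rpbp at ZT22 (SD, n = 2 each). When all genes were tested with no minimum, Ccnb1 met the rhythm criteria (F24 0.676, permutation p 0.0119, maximum at 5.89 hr) with an adjusted p of 0.152, and limma gave an adjusted p of 0.0218 for its time points. At so few sequences per sample these values lie below the level that the criteria were meant for. The mean level of Wee1 over the 12 samples, 13.7 rpbp, stood beside 1.14 rpbp for Cdk1 and 0.63 rpbp for Ccnb1.

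Ccnd1 encodes cyclin D1, which activates CDK4 and CDK6 in G1, and lies at chr7:152115836-152125774 (NCBIM37, minus strand). Its mRNA was lowest in the middle of the night and showed 2 daily maxima in the means, at ZT2 and ZT10. Series 1 gave 25.5, 17.8, 21.4, 23.2, 11.1 and 12.6 rpbp from ZT2 to ZT22. Series 2 gave 22.1, 16.3, 26.9, 21.2, 11.2 and 18.6 rpbp. The 2 samples of ZT18 were the lowest of the 12, and the samples of ZT2, ZT10 and ZT14 overlapped and lay above those of ZT6. The mean was 24.1 ± 3.87 rpbp at ZT10 and 11.2 ± 0.0566 rpbp at ZT18 (SD, n = 2 each), a ratio of 2.16.

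The time points of Ccnd1 differed (limma, adjusted p 0.0195), but the adjusted p rose to 0.0562 without the ZT2 library of series 1, to 0.0592 without the ZT18 library of series 1 and to 0.0585 without that of series 2. The 24 hr component took 32.8% of its variance (permutation p 0.168) and a 12 hr component 51.9%, where the median gene had 20.2% in the 12 hr component. Its exons share 818 bases with Oraov1 on the opposite strand, and the authors counted reads without strand. Oraov1 itself was between 14.8 and 21.3 rpbp, highest in the mean at ZT2 and lowest at ZT14, and its part in the Ccnd1 values was not tested. The genes nearest to Ccnd1 in their pattern were Timm23 (r 0.951, an import subunit of mitochondria), Lgtn (0.922) and Mrpl46 (0.899, a mitochondrial ribosomal protein).

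Myc encodes a transcription factor that drives growth and ribosome production, and lies at chr15:61816946-61821929 (NCBIM37, plus strand). Its mRNA was high around lights off and low at the other times. In series 1 the level was 3.56, 1.44, 9.16, 13.96, 1.36 and 2.60 rpbp from ZT2 to ZT22. In series 2 it was 3.92, 3.96, 14.5, 13.2, 1.72 and 3.08 rpbp. The 4 samples of ZT10 and ZT14 were above the other 8, with no order between these times, and from ZT14 to ZT18 the mean went from 13.6 ± 0.537 to 1.54 ± 0.254 rpbp (SD, n = 2 each), a ratio of 8.82.

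The 24 hr component of Myc had an F24 of 0.607 (permutation p 0.0186, adjusted p 0.115) with its maximum at 11.8 hr, and the amplitude was 10.6. The call held with each library left out (F24 from 0.546 to 0.690) but ended on a log scale, with F24 0.495 and permutation p 0.0593 for log2(rpbp + 1), and a 12 hr component took 32.7% of the variance. The test for any difference between time points had an adjusted p of 0.00392 by limma, and between 0.00208 and 0.0164 with 1 library left out. The most similar genes over the 12 samples were Pfkfb2 (r 0.920, an enzyme that sets fructose 2,6-bisphosphate), Foxq1 (0.914, a forkhead factor) and Ncl (0.909, nucleolin, a nucleolar protein of ribosome production), with fitted maxima at 12.7, 11.5 and 12.3 hr.

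**Figure D2:**
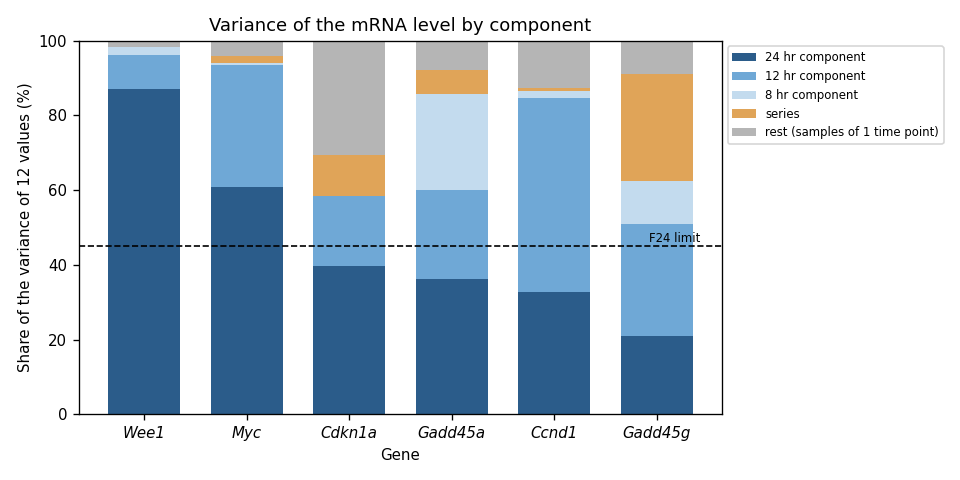
Share of the variance of the 12 values (%) that falls to the 24 hr, 12 hr and 8 hr components of the time-point means, to the difference between the 2 series and to the rest, for the 6 members past the minimum, with the F24 limit of 0.45 dashed. Wee1 has 87.1% in the 24 hr component, Ccnd1 51.9% in the 12 hr component, Gadd45g 28.6% in the series and Cdkn1a 30.7% in the rest.

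Cdkn1a encodes p21, an inhibitor of cyclin-dependent kinases that p53 induces, and lies at chr17:29227924-29237667 (NCBIM37, plus strand). Its mRNA was low at ZT6 in both series, and the series gave different values at ZT10 and ZT14. In series 1 the level was 22.8, 3.68, 2.92, 28.3, 21.7 and 31.3 rpbp from ZT2 to ZT22. In series 2 it was 16.4, 2.76, 16.1, 8.40, 10.6 and 19.5 rpbp. At ZT10 series 2 was the higher and at ZT14 series 1, whereas both series had their highest value at ZT22, with a mean of 25.4 ± 8.34 rpbp against 3.22 ± 0.651 rpbp at ZT6 (SD, n = 2 each).

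Neither test called Cdkn1a: F24 was 0.396 (permutation p 0.111, maximum at 20.4 hr) and the adjusted p of the time points by limma was 0.126. Leaving out the ZT14 library of series 1 gave F24 0.562 with permutation p 0.0438, and leaving out the ZT10 library of series 2 gave an adjusted p of 0.0446 by limma. The part of the variance that lay between samples of the same time, beyond a constant shift of the series, was 30.7%, the highest of the 6 members, beside a median of 25.3% over all genes tested. The genes with the closest pattern were Mtnr1a (r 0.904, a melatonin receptor), Ppp1r8 (0.90) and mKIAA1090 (0.897).

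The 3 Gadd45 genes had different mean levels, and of them only Gadd45a passed a test of the time points. Neither their levels nor their times of highest mRNA were tested against each other. Over the 12 samples, Gadd45g had a mean level of 20.8 rpbp, Gadd45a of 12.3 rpbp and Gadd45b of 0.867 rpbp, all per base pair of exon. Gadd45a (chr6:66985090-66987451, NCBIM37, minus strand) rose to a single high time point at ZT6. In series 1 it measured 6.08, 20.4, 11.4, 9, 7.68 and 8.36 rpbp from ZT2 to ZT22, and in series 2 it measured 4.72, 31.5, 14.1, 14.4, 8.04 and 11.7 rpbp.

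Both ZT6 samples of Gadd45a were above the other 10, and both ZT2 samples were below them. Its mean was 25.96 ± 7.81 rpbp at ZT6 and 5.40 ± 0.962 rpbp at ZT2 (SD, n = 2 each), so that within 4 hr the level differed by a ratio of 4.81. The time points differed by limma with an adjusted p of 0.0125, between 0.0129 and 0.0474 with any 1 library left out. Its 24 hr component stayed under the limit (F24 0.361, permutation p 0.103), while its 12 hr and 8 hr components took 23.8% and 25.9% of the variance. Its exons share 337 bases with E230016M11Rik on the opposite strand, which was counted without strand and whose part was not tested. The genes with the closest pattern were Gna12 (r 0.933, a G protein subunit), Tmem184b (0.911) and Slc20a1 (0.911, a phosphate transporter).

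At ZT2, where Gadd45a and Wee1 were lowest, Kupffer cell markers also had high values. All 6 of them had their highest mean at ZT2, and how many of all genes did so was not counted. Their summed level was 362 and 364 rpbp there against 203 to 289 rpbp in the other 10 samples. The largest part of it was Clec4f, with a mean of 198 rpbp at ZT2. The hepatocyte sum was 95397 and 98804 rpbp at ZT2 against 128892 to 161264 rpbp elsewhere. The largest part of that sum is Alb, and the 6 hepatocyte markers did not move together, since Apoa1 and Fgb had their highest mean at ZT2. None of the Kupffer markers was at 0 in any sample or called by either test (limma, adjusted p from 0.112 to 0.819 for the 5 tested), the endothelial (205 and 204 rpbp) and stellate (199.9 and 213 rpbp) sums at ZT2 lay within the range of the other samples, the bile duct sum was 129 and 230 rpbp at ZT2 against 64.7 to 146 rpbp elsewhere, and the part of this shift in the ZT2 values was not tested. The size factors of the ZT2 libraries by the median of ratios were 1.04 and 1.014, and with them the time points of Gadd45a (adjusted p 0.0128) and Wee1 (5.45e-05) still differed by limma. Such factors rescale whole libraries, so this result does not bear on the shares of cell types.

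Gadd45b (chr10:80392836-80394949, NCBIM37, plus strand) was below the minimum, between 0.08 and 1.92 rpbp with a median of 0.76 rpbp. It measured 1.92, 0.32, 0.72, 0.24, 1.24 and 0.52 rpbp from ZT2 to ZT22 in series 1 and 1.08, 1.32, 0.72, 0.08, 0.80 and 1.44 rpbp in series 2. Even the highest value corresponds to about 6.02 sequences at the deposited scale. Both ZT14 samples were the lowest of the 12, and without the minimum F24 was 0.410 (permutation p 0.0954).

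Gadd45g (chr13:51942047-51943837, NCBIM37, plus strand) had its highest level at ZT10 in both series and differed between the series at every time. In series 1 it measured 14.6, 3.08, 28.3, 18.3, 11.04 and 8.04 rpbp from ZT2 to ZT22, and in series 2 it measured 25.5, 19.1, 55.6, 24.4, 15.5 and 25.6 rpbp. Both ZT10 samples were above the other 10, and below them no neighbouring pair of time points in the order of the means was separated, with 3.08 against 19.1 rpbp at ZT6 and 8.04 against 25.6 rpbp at ZT22. The mean at ZT10 was 42.0 ± 19.3 rpbp (SD, n = 2).

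For Gadd45g neither the 24 hr component (F24 0.210, permutation p 0.360) nor the difference between time points (limma, adjusted p 0.304) passed. Series 2 was higher at 6 of 6 times, with a mean of 27.6 against 13.9 rpbp and a difference, series 2 minus series 1, of 1.07 ± 0.246 on the log2(rpbp + 1) scale (SE). That test was chosen after the values had been seen. It gave an unadjusted p of 0.00263 by limma and an adjusted p of 0.993, with no gene of the 10198 called after adjustment. With unadjusted p below 0.05, 2 of the 6 members, Gadd45g and Myc (0.34 ± 0.140 SE on the same scale, series 2 higher at 5 of 6 times, p 0.0420 by limma), stood beside 4.18% of all genes. Leaving out any 1 library kept the difference of Gadd45g between 0.82 and 1.21. The genes with the closest pattern to Gadd45g were AK021199 (r 0.897), Ehd4 (0.880) and Cebpb (0.847, a transcription factor of liver and of acute responses).

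**Figure D3:**
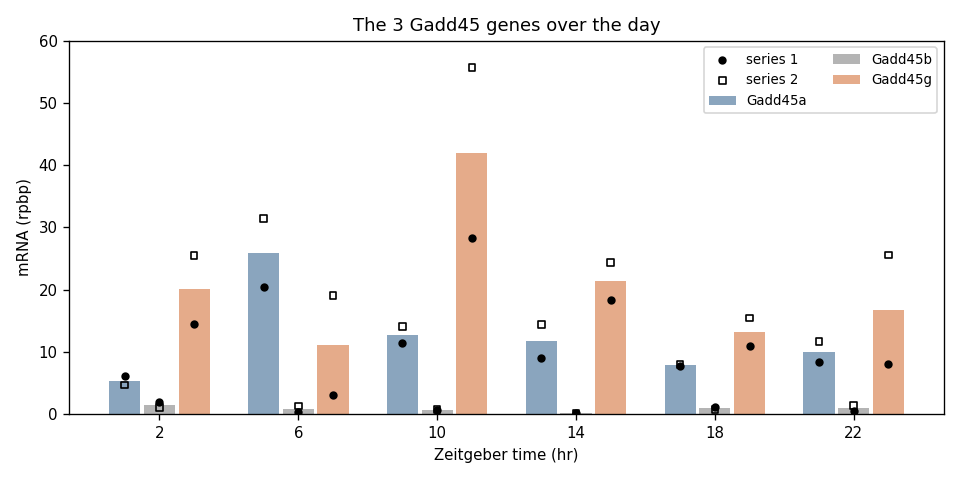
Level of Gadd45a, Gadd45b and Gadd45g (rpbp) by Zeitgeber time (hr), with bars for the mean of the 2 samples, filled circles for series 1 and open squares for series 2. Gadd45a is the highest of the family at ZT6 in both series (20.4 and 31.5 rpbp) and Gadd45g at ZT10 (28.3 and 55.6 rpbp).

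The sum of the 3 mRNAs was highest at ZT10 within each series, at 40.4 rpbp in series 1 and 70.5 rpbp in series 2, although the ZT6 sample of series 2 (51.9 rpbp) lay above the ZT10 sample of series 1. The ZT10 library of series 2, which had the highest Gadd45g, also had the highest sum in some lists, but not in others. Its sums for the G1 and S phase (159 rpbp), CDK inhibitor (19.6 rpbp), MYC network (202 rpbp) and MAP kinase (274 rpbp) lists lay within the range of the other samples. The p53 list summed to 647 rpbp there against 435 to 556 rpbp in the other samples, and the list of proliferation genes to 172 rpbp against 110 to 133 rpbp. Ei24 (mean 249 rpbp over the 12 samples) and Pcna (60.4 rpbp) form the largest parts of these sums. The 2 erythroid markers past the minimum summed to 857 rpbp in this library against 295 to 584 rpbp in the other samples. Of these, Hbb-b1 was 356 ± 343 rpbp at ZT10 (SD, n = 2). The part of these lists and of this library in the Gadd45g values was not tested beyond leaving it out, which gave an F24 of 0.0505. At ZT6, Gadd45a made up 85.7% and 60.7% of the sum in the 2 series. At ZT10, Gadd45g made up 70.0% and 78.9%. The ratio of Gadd45g to Gadd45a was 0.151 and 0.606 at ZT6, below 1 in both series, and 2.48 and 3.94 at ZT10. At ZT22 it was on either side of 1, at 0.962 in series 1 and 2.19 in series 2, and at the remaining times Gadd45g was the higher in both series.

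Across the 6 members past the minimum, 2 had both samples of the highest time point above the other 10 (Gadd45a and Gadd45g), against 25.7% of all genes tested. In 3 of them both samples of the lowest time point were below the other 10 (Wee1, Ccnd1 and Gadd45a), against 24.9%. The highest time point was the same in both series for 4 members (Wee1 at ZT10, Cdkn1a at ZT22, Gadd45a at ZT6 and Gadd45g at ZT10), against 36.4%. The 24 hr component differed between the series in 0 members by limma, adjusted or with an unadjusted p below 0.05, against 1.97% of all genes with such an unadjusted p. No test of the members as a group was made.

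Between members, log2(rpbp + 1) over the 12 samples gave r of 0.728 for Ccnd1 and Myc, 0.716 for Wee1 and Gadd45a, and 0.701 for Gadd45g and Myc. The lowest values were -0.706 for Cdkn1a and Gadd45a and -0.599 for Wee1 and Cdkn1a. These samples share their times of day and series, and the 15 correlations are a description without p.

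**Figure D4:**
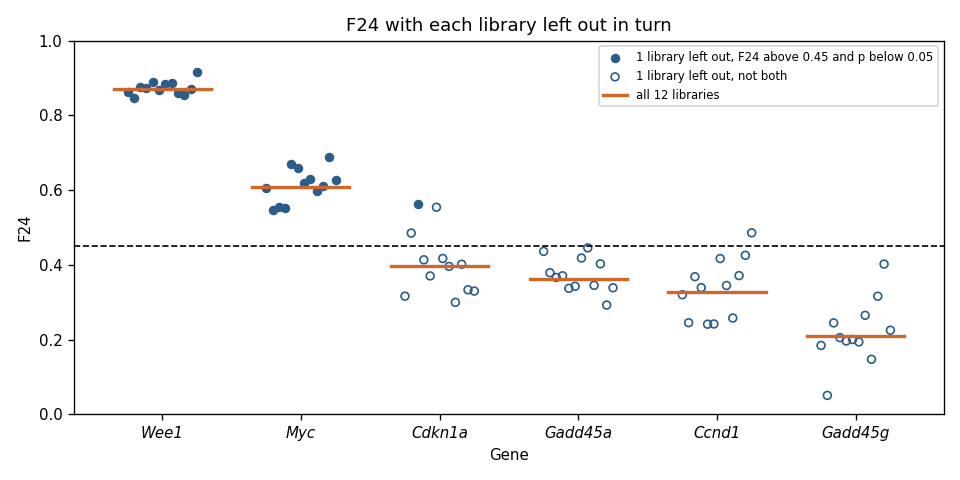
F24 of the 6 members past the minimum with each of the 12 libraries left out in turn (points, filled where F24 is above 0.45 and the permutation p is below 0.05) and with all 12 (orange line), with the limit of 0.45 dashed. Wee1 (0.847 to 0.915) and Myc (0.546 to 0.690) are called each time, and Cdkn1a is called only without the ZT14 library of series 1 (0.562).

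The wider cell cycle was examined through gene lists drawn from the textbook roles of their genes. Of 14 other cyclin, CDK and RB-E2F genes of G1 and S phase, 8 were tested, 0 met the rhythm criteria (against 19.1% of all genes) and 1, Cdk4, was called by limma (adjusted p 0.0237, against 17.6% of all genes). Cdk4, the partner kinase of cyclin D1, was 47.5 ± 3.96 rpbp at ZT2 and 29.4 ± 3.45 rpbp at ZT18 (SD, n = 2 each), and so had its lowest mean at the same time as Ccnd1. Of 9 genes that control the phosphorylation of CDK1 alongside WEE1, 2 were tested (Cdk7 and Ccnh, subunits of the CDK-activating kinase) and 0 were called by either test. The opposing phosphatase genes Cdc25a, Cdc25b and Cdc25c had mean levels of 2.16, 0.887 and 0.0567 rpbp and did not pass the minimum.

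Of 20 proliferation genes of S, G2 and M phase, 5 were tested and 1, Rrm2, was called by both tests, a share near the 19.1% and 17.6% of all genes. Rrm2 encodes the small subunit of ribonucleotide reductase, and its mRNA was 12.3 ± 1.02 rpbp at ZT10 and 1.72 ± 0.0566 rpbp at ZT2 (SD, n = 2 each), with F24 0.732 (permutation p 0.00235, adjusted p 0.0447) and a maximum at 11.6 hr. The proliferation marker Mki67 was between 1.52 and 3.76 rpbp and the mitotic kinase gene Plk1 between 0.80 and 3.04 rpbp, both below the minimum like Cdk1 and Ccnb1. Of 6 other CDK inhibitor genes 1 was tested, Cdkn1b, which encodes p27, and it was not called (F24 0.0796, permutation p 0.693).

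Of 14 genes for p53 and its targets, 13 were tested, 6 met the rhythm criteria (against 19.1% of all genes tested), 2 (Plk2 and Plk3) were called by limma (against 17.6%) and the median F24 was 0.407. With the adjusted permutation p, which 510 of the 10198 genes met, 1 of the 6 met them (Plk3, adjusted p 0.0304, maximum at 10.5 hr), with a mean of 59.8 ± 36.9 rpbp at ZT10 (SD, n = 2). The rhythmic genes with the highest F24 were Btg2 (0.656, an antiproliferative gene, maximum at 11.7 hr), Trp53inp1 (0.591, 14.2 hr), Ccng1 (0.550, cyclin G1, 8.43 hr) and Plk2 (0.532, a polo-like kinase, 21.4 hr). The adjusted permutation p was 0.0865 for Btg2, 0.132 for Trp53inp1, 0.161 for Ccng1 and 0.144 for Plk2. Cdkn1a, also a p53 target, had its fitted maximum at 20.4 hr without being called.

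Of 10 other genes of the MYC and MAX network, 8 were tested and 1 met the criteria, against 19.1% of all genes. This was Mnt, a repressor that pairs with MAX, with F24 0.520 (permutation p 0.0280, adjusted p 0.142), a maximum at 13.7 hr and levels from 3.52 to 11.2 rpbp. Max itself, the partner of MYC, was between 20.4 and 25.8 rpbp and was not called (F24 0.373, permutation p 0.129). Of 7 MAP kinase genes downstream of the GADD45 proteins, all 7 were tested and 3 met the criteria, against 19.1% of all genes, and 1, Map2k3, with the adjusted permutation p, which 510 of the 10198 genes met. Map2k3 had an F24 of 0.745 (permutation p 0.00011, adjusted p 0.0146, maximum at 10.7 hr) and Map2k6 one of 0.722 (permutation p 0.00421, adjusted p 0.0600, 10.6 hr). Both encode activating kinases of p38, and both were called by limma as well (adjusted p 0.0185 and 0.0166). Map3k4, the kinase that GADD45 proteins bind, reached an F24 of 0.474 (permutation p 0.0492, adjusted p 0.186) with its maximum at 0.771 hr and was not called by limma (adjusted p 0.175).

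Of 12 immediate early genes, which like Myc are induced within minutes to hours of a stimulus, 8 were tested, 1 (Btg2, also counted among the p53 targets) met the criteria and 1 (Junb, adjusted p 0.0499) was called by limma, against 19.1% and 17.6% of all genes, with a median F24 of 0.258. Of the 13 clock and clock output genes that were tested, 12 met the criteria and 13 were called by limma, against 19.1% and 17.6% of all genes. Their median F24 was 0.834, close to that of Wee1 and above those of the other 5 members. These genes were listed as parts of the clock, with earlier results of these data known, so they are no neutral comparison.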

How the data were processed

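Poly(A) RNA from 12 liver samples (6 time points, 2 series) was sequenced by the authors on a HiSeq and, per the labels, processed with CASAVA 1.8 and TopHat on mm9. The authors kept uniquely mapped sequences, flattened the exons of all isoforms, ignored strand and deposited the signal (mean exon coverage, reads per base pair, rpbp) at 10000000 sequences per sample with 2 decimals, so library depth is not in the values. These were multiplied by 4 to the scale of 40000000 sequences, where the last decimal is a step of 0.04 rpbp. The columns named ZT20 hold the ZT22 samples. The authors' own F24, phase and p-value columns were not used. Genes with a value above 8 rpbp were tested. F24 and its permutation p (100000 orders, seed 1) were computed with numpy 2.4.6, and limma 3.58.1 (R 4.3.3) was used on log2(rpbp + 1). Both were tested on simulated data. Exon lengths and gene positions came from GENCODE on NCBIM37 (the mm9 assembly), promoters from RefSeq on GRCm38.p6. The genes named were all members, the 3 genes most like each member that passed the minimum (Pearson r), up to 4 rhythmic genes per list by F24, and clock genes by phase only. Other list genes and marker genes were named after their values were seen. The members and lists were chosen with earlier results of these data known. The tests of rhythm take the 12 samples as independent. The alternatives tried were the minimum, the scaling, the log scale, the adjusted p, a cosine fit in limma, the amplitude of time-point means, the series as a block, and leaving out each series and each library.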

Additional observations from a re-analysis of the deposited data

How the results depend on the processing

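Against 1948 genes and 2 members called rhythmic, 510 and 1 were called with the adjusted p, and 828 and 1 with a cosine in limma and its adjusted p. The count of members was also 1 with a minimum of 16 rpbp, where Myc was not tested, and 1 on either log scale, log2(rpbp + 1) or log2(rpbp + 0.1). In each of these settings the member called was Wee1. With 1 series alone 284 to 360 genes and 0 to 0 members were called, on 6 values each, where the smallest exact permutation p is 0.0167. With no minimum 2775 genes and 3 members were called, the added member being Ccnb1. With 1 library left out the counts were 1587 to 1987 genes and 2 to 3 members, and the limma time-point test called 728 to 1673 genes against 1792 (728 to 901 without any 1 of the ZT2 and ZT6 libraries), and 3 to 5 members against 4. The cause of these shifts was not tested. Over all genes tested, the series number paired the samples little, if at all. Over 15 pairs of time points the deviations correlated with a median r of -0.0258 (-0.153 to 0.206), and 7 were above 0. A batch shared by the samples of a series was not tested. With the series as a block 1790 genes and 2 members were rhythmic, and limma called 1395 genes and 4 members. The adjusted permutation p of Wee1 was 0.0640 with the block, against 0.0304 without it. With no minimum and no block it was 0.0531. Scaling by the median of ratios or the upper quartile changed no member's call in the rhythm test. Neither setting for the difference of the 24 hr component between the series called a member. Low level limits Cdk1, Ccnb1 and Gadd45b, whose values rest on a few sequences per sample.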
